A study of Mus musculus with 2 samples.

Results

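The miR-106a-363 cluster is a run of 6 microRNA genes on the minus strand of mouse chromosome X, in the order Mir106a, Mir18b, Mir20b, Mir19b-2, Mir92-2 and Mir363. Its members were taken as the rows of the deposited count tables whose Ensembl identifier, without its version, carries one of these 6 symbols in GENCODE M21. All 6 had a row, out of 1973 gene rows in each table. The counts came from microRNA sequencing of the hindbrain, the part of the brain that forms the cerebellum, pons and medulla, of healthy B6NCrl mouse embryos aged 15.5 days. Replicate 1 pooled the tissue of 78 embryos and replicate 2 that of 62, and both pools mixed male and female embryos in a proportion that the labels do not give. The 2 libraries form 1 group with no treatment, genotype or second age, so levels within the cluster and the difference between the libraries are what could be measured.

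A microRNA is a short RNA cut from a hairpin, and it lowers the output of messenger RNAs that pair with it. Pairing rests mainly on the seed, bases 2 to 8 from its 5′ end, so microRNAs with the same seed are grouped in a family. The miR-106a-363 cluster is one of 3 paralogous clusters in mammals. The others are miR-17-92 on chromosome 14, which is known for promoting proliferation and survival and is needed for normal development, and miR-106b-25 on chromosome 5, which lies within the gene Mcm7. Members of these clusters are expressed in neural progenitors of the embryonic brain.

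Replicate 1 held 8327917 reads and replicate 2 held 10507754, of which 3937840 and 4839647 lay on the own strand of a microRNA gene. A level in CPM is a gene's count divided by that strand total and scaled to 1000000 reads. Reads that mapped to several loci, 35.4% and 34.2% of each library, are listed apart from the genes. Axial and neural markers were present, but unevenly. The 5 genes of the miR-10 and miR-196 families summed to 90898 and 130466 CPM, mostly from Mir10a and Mir10b. Mir196a-1 had 1 read in each library. The 10 neural genes summed to 11916 and 13559 CPM, mostly from Mir137 (7910 and 8811 CPM). Of these, 7 had at least 10 reads in both libraries. Low ones were Mir124a-1 (3.56 and 4.34 CPM), Mir124a-2 (1.52 and 2.27), Mir124a-3 (2.54 and 1.86) and Mir9-2 (1.52 and 3.51), while Mir9-3 had 506 and 646 CPM. RNA of other cells was also present. Mir126a, which marks endothelium, had 25702 and 22600 CPM. Summed levels were 6623 and 5913 CPM for 6 genes of mesenchyme, mostly from Mir143 (6174 and 5540 CPM). Mir199a-1, of the same list, had 2 reads in each library. For 3 genes of choroid plexus, summed levels were 5572 and 7111 CPM. They were 478 and 377 CPM for 3 genes of leukocytes and 173 and 125 CPM for 2 erythroid genes. Of 5 genes of striated muscle, Mir206 had 27.2 and 23.4 CPM, and Mir1a-1, Mir133b and both copies of Mir133a had 0 reads. Genes with a copy elsewhere, such as those of Mir133a and Mir124a, can lose reads that map to several loci, so low counts there do not show absence. That loss was not tested.

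The mature sequences of the members show which of them are close to other microRNAs. All sequences below are RefSeq's for build GRCm38.p6, read 5′ to 3′, with the seed in capitals. RefSeq holds 11 mature arms for the 6 members, and the arm of the family seed is shown for each. Mir106a and Mir20b carry the miR-17 seed, which 7 genes of the tables share, and the lines give these 2 members followed by their 4 paralogs.
miR-106a-5p: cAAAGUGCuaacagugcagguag
miR-20b-5p: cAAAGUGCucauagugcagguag
miR-17-5p: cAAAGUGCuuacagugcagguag
miR-20a-5p: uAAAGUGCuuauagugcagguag
miR-93-5p: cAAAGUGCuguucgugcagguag
miR-106b-5p: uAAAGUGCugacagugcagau
Positions are counted from 1 at the 5′ end, with the member's base first and the other microRNA's base last. The arm miR-106a-5p differed from miR-17-5p only by A10U, and from miR-20b-5p, made from its own cluster, by A10C and C12U. The arm miR-20b-5p differed from miR-20a-5p by C1U and C10U, and from miR-17-5p by C10U and U12C. Every one of these changes lies outside the seed. The other gene with this seed is Mir6383, elsewhere on chromosome X, whose microRNA differed from miR-106a-5p at 13 of 21 positions.

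Mir18b carries the miR-18 seed, shared only with Mir18 of miR-17-92 among the genes of the tables. The pair is printed because their difference lies near the 3′ end.
miR-18b-5p: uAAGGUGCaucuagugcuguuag
miR-18a-5p: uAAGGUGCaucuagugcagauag
They differed by U18A and U20A. Both changes lie outside the seed.

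Mir19b-2 carries the miR-19 seed, and its 3p arm is the same molecule as that of Mir19b-1.
miR-19b-3p: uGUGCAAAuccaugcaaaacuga
miR-19a-3p: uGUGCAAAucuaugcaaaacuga
The microRNA of Mir19a, the remaining gene of this seed, differed from miR-19b-3p by C11U. The 5p arms of Mir19b-2 and Mir19b-1 are not identical, although they share a seed.
miR-19b-2-5p: aGUUUUGCagauuugcaguucagc
miR-19b-1-5p: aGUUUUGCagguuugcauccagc

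Mir92-2 and Mir363 carry the miR-25/92 seed, which 7 genes of the tables share. They are printed with the microRNAs of the other genes of that seed that had reads. The arm miR-92a-3p is made both from Mir92-2 and from Mir92-1.
miR-92a-3p: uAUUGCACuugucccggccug
miR-363-3p: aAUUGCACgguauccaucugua
miR-92b-3p: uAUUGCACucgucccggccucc
miR-25-3p: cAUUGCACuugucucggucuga
miR-32-5p: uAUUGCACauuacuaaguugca
The arm miR-363-3p shared little beyond the seed, and differed from miR-92a-3p at 11 of 21 positions. The arm miR-92a-3p differed from miR-92b-3p by U10C and G21C over its 21 positions, and from miR-25-3p by U1C, C14U and C18U. The 5p arms again separate the genes that share miR-92a-3p.
miR-92a-2-5p: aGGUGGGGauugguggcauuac
miR-92a-1-5p: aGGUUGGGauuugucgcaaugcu

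The hairpins of the cluster span 875 bases (GRCm38, chrX:52741693-52742567). Mir106a (ENSMUSG00000065456.1), the first to be transcribed, lies at chrX:52742503-52742567. It is followed at 89 bases by Mir18b (ENSMUSG00000077111.2, chrX:52742331-52742413) and after 138 more by Mir20b (ENSMUSG00000076041.1, chrX:52742113-52742192). Mir19b-2 (ENSMUSG00000065473.1, chrX:52741983-52742066) begins 46 bases further on, Mir92-2 (ENSMUSG00000065613.1, chrX:52741838-52741928) 54 bases after it, and Mir363 (ENSMUSG00000070106.1, chrX:52741693-52741767) 70 bases after that. In GENCODE M21, the first 5 bases of Mir106a lie in the last exon of the noncoding gene Kis2 (chrX:52742563-52744960, same strand), and the other 5 members lie beyond its annotated end, in no exon or intron of it. No other microRNA gene lay within 100 kb, and the nearest, Mir450b, was 305429 bases away (chrX:53047997-53048078).

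The 6 genes together held 2908 reads in replicate 1 and 3652 in replicate 2, or 738 and 755 CPM (747 ± 11.4, mean and SD, n = 2). This was 0.0738% of the microRNA reads of replicate 1 (exact Clopper-Pearson 95% interval 0.0712 to 0.0766) and 0.0755% of those of replicate 2 (0.0730 to 0.0780). Such intervals cover counting error only, since reads without molecular identifiers are not independent molecules. Because whole tissue was sequenced, a low level could mean few cells with the microRNA or little of it in each, and these cannot be told apart.

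Mir106a had the highest level, with 1016 reads and 258 CPM in replicate 1 and 1307 reads and 270.1 CPM in replicate 2 (264 ± 8.52). Mir363, the last gene of the cluster, had 936 reads and 238 CPM in replicate 1 and 1160 reads and 239.7 CPM in replicate 2 (239 ± 1.41). Mir20b had 673 reads and 171 CPM in replicate 1 and 786 reads and 162 CPM in replicate 2 (167 ± 6.01). These 3 genes, the outer pair and one from the middle, supplied 90.3% of the cluster's reads in replicate 1 and 89.1% in replicate 2. They also were the only members above 151 CPM, the median level of the 372 genes with at least 10 reads in both libraries, and stood at ranks 155, 160 and 181 among all genes.

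The remaining 3 members were lower. Mir92-2 had 183 reads and 46.5 CPM in replicate 1 and 250 reads and 51.7 CPM in replicate 2 (49.1 ± 3.67). Mir18b had 86 reads and 21.8 CPM in replicate 1 and 143 reads and 29.6 CPM in replicate 2 (25.7 ± 5.45). Mir19b-2 was close to the detection limit, with 14 reads and 3.56 CPM in replicate 1 and 6 reads and 1.24 CPM in replicate 2 (2.40 ± 1.64). A count of 0 would allow up to 3 reads, which is 0.762 CPM in replicate 1 and 0.62 CPM in replicate 2. The level of Mir19b-2 rests on replicate 1, which gave 3.56 CPM alone, against 1.24 CPM in replicate 2 alone.

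**Figure D1:**
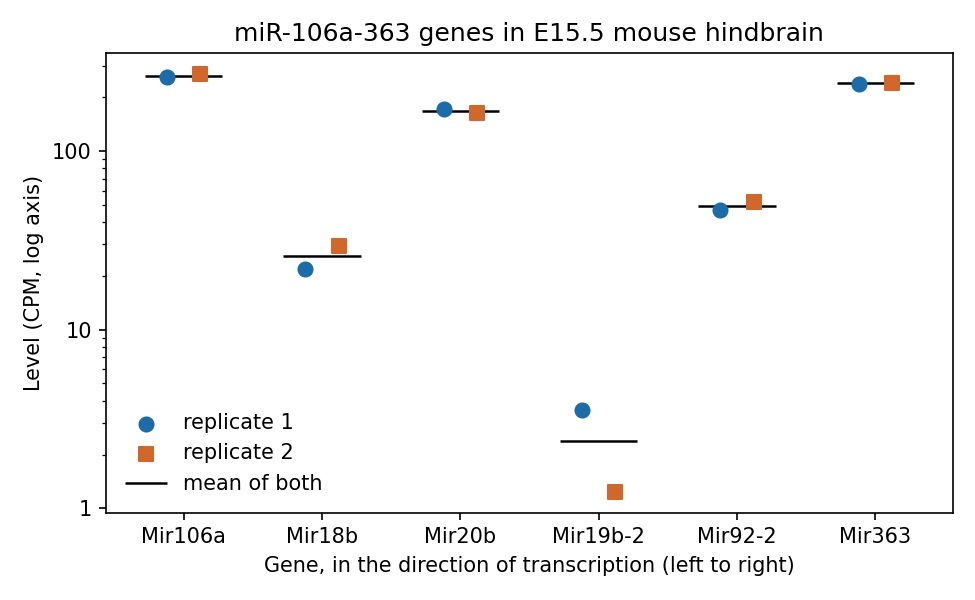
Level of each gene of the cluster in CPM on a log axis, in the order of transcription, for replicate 1 (circles) and replicate 2 (squares), with the mean of both as a bar. Mir106a, Mir363 and Mir20b lie between 162 and 270.1 CPM in both libraries, and Mir19b-2 lies at 3.56 and 1.24 CPM.

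The order of the CPM levels, from Mir106a through Mir363, Mir20b, Mir92-2 and Mir18b to Mir19b-2, was the same in both libraries, and the library values of no neighbouring pair overlapped. It does not follow the order of the genes along the chromosome. Scaling to hairpin length left the order as it was, at 406, 318, 208, 53.9, 31.0 and 2.85 CPM per 100 nt of hairpin. The gap between Mir106a and Mir363 was the narrowest. In CPM it was 25.3 between the means, against SDs of 8.52 and 1.41, and the ratio of reads was 1.09 in replicate 1 (95% interval 0.992 to 1.19) and 1.13 in replicate 2 (1.04 to 1.22). Counting error alone thus covered the difference in replicate 1 and not in replicate 2. Mir363 exceeded Mir20b 1.39-fold (1.26 to 1.54) and 1.48-fold (1.35 to 1.62) in reads. The next step down was wider, with Mir20b 3.68-fold and 3.14-fold above Mir92-2. Between Mir92-2 and Mir18b the ratio of reads was 2.13 (1.64 to 2.78) and 1.75 (1.42 to 2.16). Mir18b exceeded Mir19b-2 6.14-fold (3.47 to 11.7) in replicate 1 and 23.8-fold (10.7 to 66.0) in replicate 2, so the size of this last step depends on the library. The counts join both arms of a hairpin, and the share of each arm was not measured. Whether microRNAs of different sequence yield reads at equal rates was not tested, so the order is one of reads.

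As shares of the cluster's reads, Mir106a made up 34.9% (exact 95% interval 33.2 to 36.7) in replicate 1 and 35.8% (34.2 to 37.4) in replicate 2. Mir363 made up 32.2% (30.5 to 33.9) and 31.8% (30.3 to 33.3), and Mir20b 23.1% (21.6 to 24.7) and 21.5% (20.2 to 22.9). The intervals of each of these 3 genes overlapped between the libraries. Mir92-2 held 6.29% (5.44 to 7.24) and 6.85% (6.05 to 7.71), Mir18b 2.96% (2.37 to 3.64) and 3.92% (3.31 to 4.60), and Mir19b-2 0.481% (0.263 to 0.806) and 0.164% (0.0603 to 0.357). No read lay on the opposite strand of any member in either library.

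Sequence shared with other genes touches these levels unequally. A read that maps to several loci counts for no gene in tables of this layout, so a hairpin that has an exact copy of its mature arm elsewhere can lose those reads. Of the 6 members, 2 had 20 nt or more in common with another of the 2202 microRNA genes of M21. The hairpin of Mir19b-2 shared 25 nt with that of Mir19b-1, which includes all of miR-19b-3p, and the hairpin of Mir92-2 shared 22 nt with that of Mir92-1, which includes all of miR-92a-3p. Reads that lie wholly within these stretches cannot be told apart by gene, and how many of the reads placed at several loci came from them was not tested. Their 5p arms had no copy, with at least 6 mismatches to any other microRNA gene for miR-19b-2-5p and 5 for miR-92a-2-5p. The levels of Mir19b-2 and Mir92-2 are therefore counts of the reads that could be placed.

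The other 4 members shared shorter stretches. Mir18b shared 17 nt with Mir18, Mir20b 14 nt with Mir20a, Mir106a 13 nt with Mir17, and Mir363 14 nt with Mir6537, a gene outside these families. The closest stretches elsewhere were 1 mismatch away for miR-106a-5p (Mir17), 2 for miR-20b-5p (Mir106a, Mir17 and Mir20a), 2 for miR-18b-5p (Mir18) and 7 for miR-363-3p. Mir363 was thus the member whose family arm lay farthest from any other microRNA gene. Mir17, whose 5p arm is 1 base from that of Mir106a, had 70805 reads in replicate 1 and 79526 in replicate 2, against the 1016 and 1307 of Mir106a. Whether misplaced reads of such abundant neighbours add to the counts of Mir106a, Mir20b and Mir18b was not tested.

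The cluster was next set beside its paralogs. In miR-17-92, 5 of the 6 genes occupy the same place as a member, Mir19a has no counterpart on chromosome X, and Mir363 has none on chromosome 14. The 6 genes of miR-17-92 held 110765 and 126221 reads, or 28128 and 26081 CPM (27104 ± 1448). That was 38.1 times (95% interval 36.7 to 39.5) the reads of the miR-106a-363 cluster in replicate 1 and 34.6 times (33.4 to 35.7) in replicate 2. Put the other way, there were 2.63 and 2.89 reads of the miR-106a-363 cluster per 100 reads of miR-17-92 (2.76 ± 0.19). The 3 genes of miR-106b-25 held 55685 and 64431 reads, 19.2 (18.5 to 19.9) and 17.6 (17.1 to 18.3) times those of the miR-106a-363 cluster. The X-linked cluster held the fewest reads of the 3 in both libraries.

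The gap to miR-17-92 was not even along the cluster. In reads, Mir17 exceeded Mir106a 69.7-fold (65.5 to 74.2) in replicate 1 and 60.9-fold (57.6 to 64.3) in replicate 2. Mir18 exceeded Mir18b 132-fold (107 to 165) and 107-fold (90.6 to 127), the widest gap of the 5 pairs. Mir20a exceeded Mir20b 35.8-fold (33.2 to 38.7) and 33.5-fold (31.2 to 36.0). These 3 pairs share no stretch of 20 nt with any microRNA gene, and in each library their intervals did not overlap. Over these pairs alone the members held 1.67 and 1.85 reads per 100 of their partners (1.76 ± 0.12), against 2.76 over all genes of both clusters.

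The 2 pairs with an identical arm lay closer together. Mir92-1, at 4303 and 4907 reads, exceeded Mir92-2 23.5-fold (20.3 to 27.4) and 19.6-fold (17.3 to 22.4). Mir19b-1, with only 44 and 33 reads, exceeded Mir19b-2 3.14-fold (1.69 to 6.21) and 5.50-fold (2.28 to 16.1). By the handling inferred from the layout, reads that lie wholly within the shared stretch count for neither gene, so the folds hold for placed reads only. Reads of the shared arm that run past the stretch could still be placed, and their number was not measured. Per nucleotide of hairpin the mean folds were 50.4 for the Mir17 pair, 101 for the Mir18 pair, 25.9 for the Mir20a pair, 24.4 for the Mir92-1 pair and 3.62 for the Mir19b-1 pair, in the same order as for reads. The hairpins of the pairs had 59.6% (Mir20b and Mir20a) to 75% (Mir19b-2 and Mir19b-1) of aligned positions identical.

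**Figure D2:**
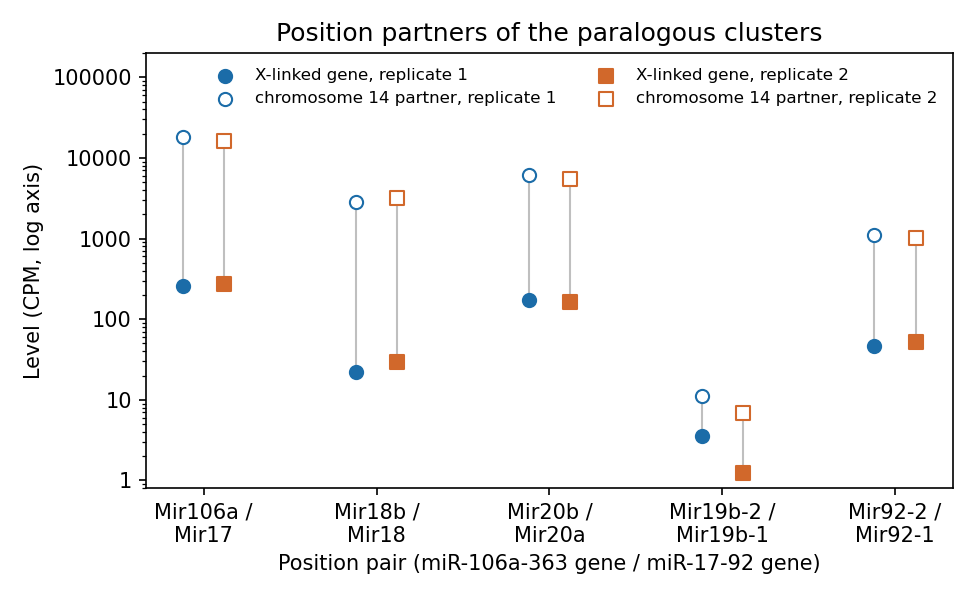
Level in CPM on a log axis of each member with a position partner (filled) and of its partner in miR-17-92 on chromosome 14 (open), for replicate 1 (circles) and replicate 2 (squares), with a line joining the values of one library. Every member lies below its partner in both libraries, by the most for Mir18b and by the least for Mir19b-2.

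Levels were also summed over the genes of each seed family. These sums are whole-hairpin counts of placed reads, so they include the other arm of each hairpin and leave out reads of miR-19b-3p and miR-92a-3p that map to both of their loci. The genes of the miR-17 family held 151226 reads in replicate 1 and 171091 in replicate 2. Mir106a and Mir20b together supplied 1.12% of them (exact 95% interval 1.07 to 1.17) and 1.22% (1.17 to 1.28). Mir17 supplied 46.8% and 46.5%, Mir93 22.7% and 21.5%, Mir20a 15.9% and 15.4%, and Mir106b 13.4% and 15.5%. Mir6383 had 0 reads in both libraries, which allows up to 0.762 and 0.62 CPM by counting error. In the miR-18 family, Mir18b supplied 0.753% (0.603 to 0.929) and 0.928% (0.782 to 1.09), and Mir18 the rest.

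Among placed reads of the miR-25/92 family, Mir363 and Mir92-2 supplied 1119 of 22541 reads in replicate 1, or 4.96% (4.68 to 5.26), and 1410 of 24539 in replicate 2, or 5.75% (5.46 to 6.04). Most of that came from Mir363, at 4.15% and 4.73%, close to the 4.69% and 5.19% of Mir25. Mir25, of the miR-106b-25 cluster, had 269 and 263 CPM, a little above the 238 and 239.7 CPM of Mir363. By placed reads the leading gene was Mir92b, which belongs to none of the 3 clusters, with 15535 and 16310 reads (68.9% and 66.5%). Mir32, a gene on chromosome 4, supplied 2.33% and 2.60%, and Mir367, known from pluripotent cells, had 0 reads in both libraries. Mir367 did not stand for all markers of such cells. The 10 genes listed for them, Mir367 included, summed to 945 and 982 CPM. Most of this came from Mir302a (374 and 370 CPM), Mir302d (303 and 315) and Mir302b (218 and 245). Mir290a, like Mir367, was at 0. Low too were Mir291a (0.762 and 0.413 CPM), Mir292 (6.35 and 3.93), Mir294 (9.14 and 8.47) and Mir295 (0.762 and 1.03). Mir302c had 33.8 and 38.4 CPM. The listed genes thus did not agree on such cells. In the miR-19 family only 227 and 205 reads were placed in all, of which Mir19b-2 held 6.17% (3.41 to 10.1) and 2.93% (1.08 to 6.26) and Mir19a 74.5% and 81.0%. Mir19a, which has no stretch of 20 nt in common with another gene, had 169 and 166 reads.

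**Figure D3:**
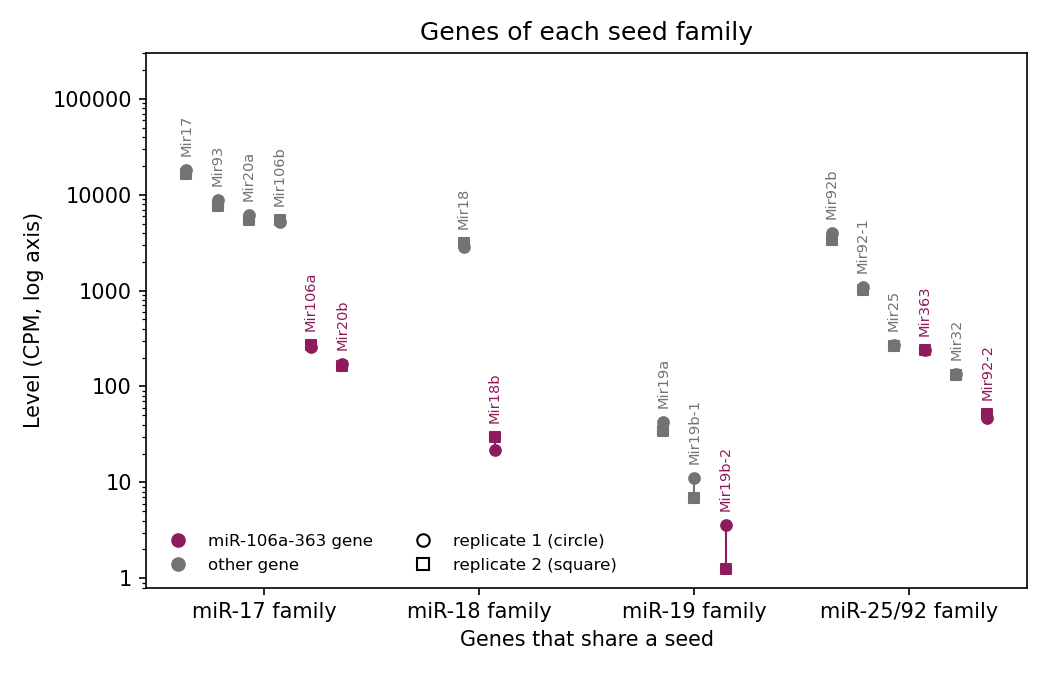
Level in CPM on a log axis of every gene with reads that carries one of the 4 family seeds, with circles for replicate 1, squares for replicate 2, and genes of the miR-106a-363 cluster in colour. Mir106a and Mir20b lie well below the other genes of the miR-17 seed, while Mir363 lies beside Mir25.

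The libraries were then compared gene by gene with an exact two-sided conditional binomial test on the counts after TMM scaling, adjusted by Benjamini-Hochberg over 426 genes. The test compares these 2 libraries and holds counting error only, so it says nothing of a condition. None of the 6 members was called at an adjusted p of 0.05, against 35.9% of the genes tested (153 of 426). At an unadjusted p below 0.05 there were 2 members, Mir18b and Mir19b-2, against 43.2% of the genes tested. The edgeR exact test with an assumed coefficient of variation of 0.1 or 0.2 also called 0 members, against 1.41% and 0% of the genes tested. The median log2 ratio of replicate 2 over replicate 1 was 0.02 over the members and -0.01 over all genes tested. A missing call does not show equal levels.

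For Mir106a the log2 ratio was 0.05 (95% interval -0.07 to 0.17), and its exact binomial p was 0.609 after adjustment. Mir363 had a log2 ratio of -0.00482 (-0.13 to 0.12, exact binomial p 0.992 after adjustment), and its sign changed with the scaling. Mir20b had a log2 ratio of -0.09 (-0.24 to 0.06). Mir92-2 had a log2 ratio of 0.14 (-0.15 to 0.42). For these 4 genes the interval held 0, and it was widest for Mir92-2. Mir18b had a log2 ratio of 0.42 (0.02 to 0.82), with an exact binomial p of 0.0334 and an adjusted p of 0.0804. Mir19b-2 had a log2 ratio of -1.54 (-3.20 to -0.07), with an exact binomial p of 0.025 and an adjusted p of 0.0641, and it entered the test only through its 14 reads in replicate 1. The log2 ratio of Mir19b-2 lay outside the range from the 5th to the 95th percentile of the genes tested, -0.73 to 0.82, and those of the other 5 members lay inside it.

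Most of the paralogs, with their higher counts, had narrower intervals. Of the 6 genes of miR-17-92, 4 were called, with Mir18 higher in replicate 2 (log2 ratio 0.12, exact binomial adjusted p = 6.72e-10) and Mir17, Mir20a and Mir92-1 lower (-0.15, -0.19 and -0.12). Of all genes tested, 15.3% were called higher in replicate 2 and 20.7% lower. Mir18 and Mir18b thus both had ratios above 0, although that of Mir18b was not called. Mir20a and Mir20b (-0.09) both had ratios below 0. Other partners went opposite ways, with Mir106a (0.05) and Mir92-2 (0.14) above 0 and Mir17 and Mir92-1 below it. Of miR-106b-25, Mir106b was higher in replicate 2 (0.06) and Mir93 lower (-0.22), while Mir25 was not called (-0.05). The ratios of both miR-19b genes lay below 0, at -1.54 for Mir19b-2 and -0.73 for Mir19b-1 (exact binomial adjusted p = 0.0733).

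**Figure D4:**
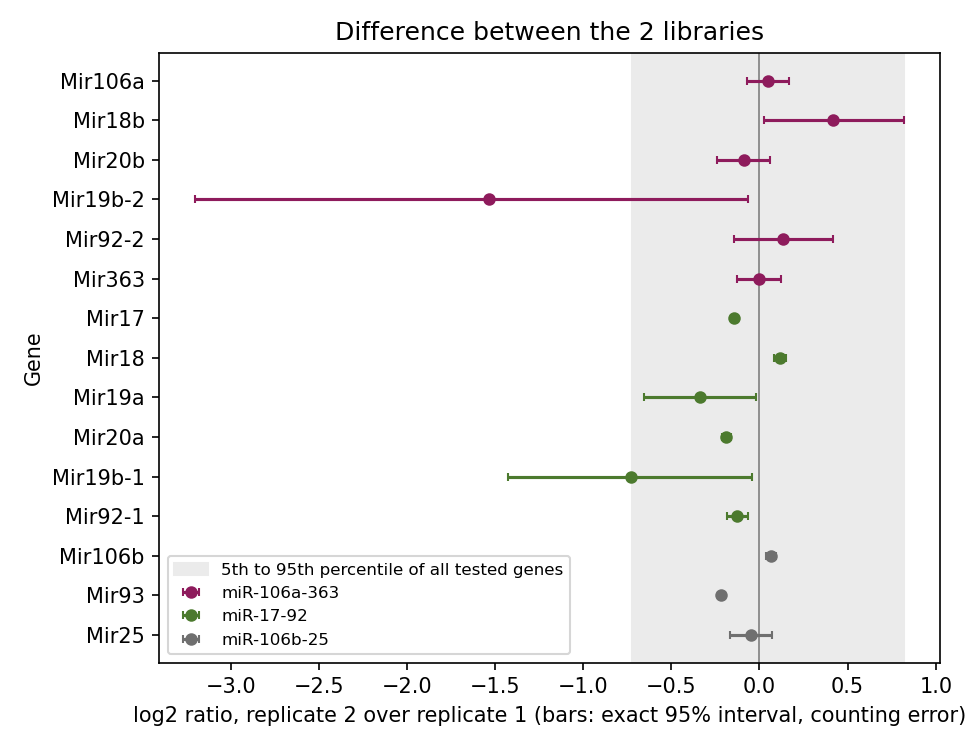
Log2 ratio of replicate 2 over replicate 1 with its exact 95% interval for the genes of the 3 paralogous clusters, over a grey band from the 5th to the 95th percentile of the 426 genes tested (-0.73 to 0.82). The intervals of Mir18b and Mir19b-2 leave out 0 among the 6 members, and Mir19b-2 lies outside the band.

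On chromosome X, 120 genes of the tables were annotated and 41 had at least 10 reads in both libraries, of which 5 were members. The 36 others had a median level of 205 CPM, which lay below Mir106a and Mir363 and above the other 4 members. Among the X-linked genes Mir106a ranked 17, Mir363 19, Mir20b 24, Mir92-2 32, Mir18b 35 and Mir19b-2 42 by mean CPM. Every X-linked gene counts in these ranks, those with few or no reads included.

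The 5 genes whose levels were nearest to those of Mir106a were Mir874, Mir25, Mir16-2, Mir210 and Mir672, by the distance of log2(CPM + 1) over the 2 libraries. Mir874 was nearest, at a distance of 0.07, with 270.2 and 273 CPM. Mir16-2, of the miR-15/16 family, had 268 and 286 CPM, Mir210, a microRNA induced by low oxygen, had 252 and 252 CPM, and Mir672, also on chromosome X, had 271 and 292 CPM (distance 0.13). With 2 libraries of one group, such nearness means a similar level only.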

How the data were processed

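MicroRNA libraries from 2 pools of hindbrain were used as deposited. The authors deposited raw counts of reads per microRNA gene, on mm10 per the labels and with GENCODE M4 per a note deposited beside each table. The aligner, read trimming and counter are, by name, not given in the sources used here. That a read mapping to several loci counts for no gene was inferred from the layout, which has a row of its own for such reads. The tables have no header, and the single-strand column that held more reads was used as the own strand. Rows that name no gene stayed out of totals and tests: reads at several loci, unmapped reads (13.7% and 15.8%) and reads outside genes (2.56% and 2.96%).

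Symbols and positions came from GENCODE M21 (1894 of 1973 identifiers matched), and microRNA sequences from RefSeq, where all 6 members were found. The hairpins of all 15 genes of the 3 clusters were the same in both. Shared stretches were sought on both strands of the annotated microRNA genes only. Counts were scaled to CPM. TMM factors and the edgeR exact test came from edgeR 4.0.16 in R 4.3.3. The binomial tests between the libraries and the intervals of their log2 ratios also came from R. Exact intervals of shares and of read ratios within a library came from scipy 1.17.1 in Python 3.11.15. A gene was tested where either library reached 10 reads. The coefficient of variation between the libraries, estimated over the tested genes, was 10.5%. The binomial test was checked on simulated counts with counting error only and with the scaling given. TMM and variation beyond counting error were not part of that check. The alternatives were DESeq2 1.42.0 size factors, total counts, other filters, both strands together, an assumed variation, all reads as the total and each library alone. Levels per hairpin length were added after seeing the data.

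The members, the paralogs and the marker lists were chosen with earlier results of these data known. Genes were named by rule: the members, the 9 genes of the paralogous clusters, genes sharing a member's family seed, the 5 nearest to the highest member in log2(CPM + 1), and microRNA genes within 100 kb. Marker genes, the nearest genes beyond that window and the closest hairpin to Mir363 were named after their values were seen.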

Additional observations from a re-analysis of the deposited data

How the results depend on the processing

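Of 106 recomputed values, 21 summaries and 69 other values were graded as unchanged. Log2 ratios among these kept their direction and their side of the threshold. Counts of genes called between the libraries stayed between 137 and 163, near the main 153. All 6 members kept their place in the order of levels, and 2 members kept a shared stretch. Levels and ratios of levels stayed within 1 SD of the 2 libraries. A level or ratio from 1 library alone always lies within 1 SD of the mean of 2 libraries. For those settings the outcome was fixed in advance and shows no stability. That SD is wide for Mir19b-2, whose level was 2.40 CPM with both libraries and 1.24 or 3.56 CPM with one alone. Beyond it, 3 summaries and 6 values of single members moved. Scaled by all reads of the library, which include unmapped reads and reads at several loci, the summed level of the cluster was 348 in place of 747 CPM, and with both strands counted together it was 731 CPM. Each library alone gave 738 to 755 CPM, and 2.63 to 2.89 reads of the cluster per 100 of miR-17-92. That ratio was 1.76 over the 3 pairs without a shared stretch. Over all genes of both clusters it did not change with both strands counted together. This outcome too was fixed in advance, since none of these genes had reads on the opposite strand. Minima of 18 and 22 nt for a shared stretch also left 2 members, as the lengths already found had settled. The number of genes called between the libraries fell from 153 to 6 and 0 with an assumed coefficient of variation of 0.1 and 0.2, where variation beyond counting error is allowed for. The log2 ratio of Mir363 turned from -0.00482 to 0.00998 with DESeq2 size factors, 0.012 with total counts, 0.0264 without a filter, 0.0178 with 10 reads required in both libraries and 0.00269 with both strands together. No member was called under any setting. No paired analysis was possible because there is 1 group.

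The main limits are 1 group, 2 libraries, counts that join both arms of a hairpin, and reads of miR-19b-3p and miR-92a-3p that belong to 2 loci each. Levels of different genes also compare reads only, and whether their sequences yield reads equally was not tested. Counts were lowest for Mir19b-2, at 14 and 6 reads, and how many of its reads were placed at several loci was not tested. The libraries differed beyond counting error at 153 genes, and with 1 group this can be tied to no condition.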
